A study of Mus musculus with 18 samples.

Results

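Chemokine ligands are small secreted proteins that steer leukocytes, and their mRNAs were followed here in mouse dendritic cells (DCs) placed in collagen gels or left in suspension. The 10 genes described were Ccl3, Ccl4, Ccl5, Ccl2, Ccl17, Ccl22, Cxcl2, Cxcl3, Cxcl10 and Cxcl16, chosen by name from the 29875 genes of the deposited count table. All 10 passed the filter on low counts, as did 13844 genes in all. RNA was taken from 18 libraries in 6 groups of 3 replicates. In 4 groups the cells sat in gels of bovine collagen at a density of 1.7, 2.6, 3.5 or 4.4 mg/ml, with a source of the chemokine CCL19. In the other two groups the cells were put into the same chambers without collagen, and by title one of these groups received CCL19 and the other did not. What all groups shared was their origin: bone marrow of wild-type C57Bl6/J mice aged 8 to 12 weeks, grown in 10% supernatant of a hybridoma that makes GM-CSF. The cells of every group had also been matured with lipopolysaccharide (LPS, 200 ng/ml) from day 8, and entered the chambers 24 hours later. RNA was collected after 5 hours of the CCL19 gradient. In every replicate the library names of the 2 suspension groups give the opposite CCL19 state from the titles, so the groups are named by title and no direction is read from their difference. The collagen comparisons below use all 6 suspension libraries, so the gel and CCL19 cannot be fully told apart in them.

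Inflammatory chemokines are switched on by Toll-like receptors: LPS binds TLR4, and the signal passes through MyD88 and the IκB kinases to NF-κB, or through TRIF to interferon regulatory factors. Ccl3, Ccl4, Ccl5 and Ccl2 draw monocytes, T cells and NK cells through CC chemokine receptors such as CCR1 and CCR2, and Cxcl2 and Cxcl3 draw neutrophils through CXCR2. Cxcl10 is a ligand of CXCR3 on T cells. Ccl17 and Ccl22, the ligands of CCR4, are made in quantity by DCs grown in GM-CSF, and Cxcl16 is a membrane-anchored ligand of CXCR6 that proteases can release.

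The genes lie in 3 chemokine clusters and 1 locus apart from them (GRCm38). On chromosome 11 are Ccl3 (ENSMUSG00000000982, chr11:83647844-83649355), Ccl4 (ENSMUSG00000018930, chr11:83662584-83664683), Ccl5 (ENSMUSG00000035042, chr11:83525778-83530518) and Ccl2 (ENSMUSG00000035385, chr11:82035571-82037453), and, 13187.9 kb from Ccl3, Cxcl16 (ENSMUSG00000018920, chr11:70453983-70459984). Chromosome 8 holds Ccl17 (ENSMUSG00000031780, chr8:94810453-94812036) and Ccl22 (ENSMUSG00000031779, chr8:94745590-94751699). Chromosome 5 holds Cxcl2 (ENSMUSG00000058427, chr5:90903871-90905938), Cxcl3 (ENSMUSG00000029379, chr5:90786103-90789600) and Cxcl10 (ENSMUSG00000034855, chr5:92346638-92348889). Each count covers the whole annotated gene.

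The libraries held 13062944 to 28059839 counts, so that 3 counts were worth 0.107 to 0.230 CPM, the count scaled to a common library total. Values are CPM on library sizes scaled by TMM (trimmed mean of M values) unless another unit is given. DC markers were abundant in all libraries: the 9 of them, among them Itgax, Cd74, Zbtb46 and Ccr7, summed to 15557 to 52398 CPM. Markers of other cells were present too. The 9 neutrophil markers summed to 632 to 9740 CPM in suspension and 1044 to 5161 CPM in collagen. The 4 monocyte markers summed to 293 to 1361 CPM in suspension and 225 to 1810 CPM in collagen. The 9 macrophage markers summed to 334 to 1473 CPM in suspension and 509 to 2282 CPM in collagen, and the 6 eosinophil markers to 108 to 1269 CPM in suspension and 9.55 to 156 CPM in collagen. None of these macrophage or eosinophil markers stayed at 3 counts or fewer in all libraries. In RNA from a mixed culture, fewer cells of a type and less RNA per cell cannot be told apart.

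The promoters of Cxcl2, Cxcl3, Cxcl10 and Ccl3 are shown because these 4 had the largest log2 fold changes at 4.4 mg/ml among the 6 members matched to a RefSeq promoter (GRCm38.p6: Ccl3, Ccl17, Ccl22, Cxcl2, Cxcl3 and Cxcl10). Only bases upstream of every annotated start are printed, in the direction of transcription. Capitals mark matches on either strand to the NF-κB consensus, the AP-1 motif TGANTCA or the interferon-stimulated response element (GAAA, any 2 bases, GAAA). The windows are chr5:90903649-90903870 (plus strand) for Cxcl2, chr5:90785851-90786100 (plus) for Cxcl3, chr5:92348890-92349139 (minus) for Cxcl10 and chr11:83649379-83649628 (minus) for Ccl3.
Cxcl2: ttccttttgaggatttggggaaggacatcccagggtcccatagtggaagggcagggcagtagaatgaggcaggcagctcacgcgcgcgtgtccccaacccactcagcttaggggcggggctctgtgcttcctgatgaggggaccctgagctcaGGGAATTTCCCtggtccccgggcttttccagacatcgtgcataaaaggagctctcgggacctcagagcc
Cxcl3: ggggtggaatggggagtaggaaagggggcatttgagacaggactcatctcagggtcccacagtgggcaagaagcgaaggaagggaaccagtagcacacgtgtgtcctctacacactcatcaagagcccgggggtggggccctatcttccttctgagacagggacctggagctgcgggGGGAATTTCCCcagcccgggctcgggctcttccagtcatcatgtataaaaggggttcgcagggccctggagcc
Cxcl10: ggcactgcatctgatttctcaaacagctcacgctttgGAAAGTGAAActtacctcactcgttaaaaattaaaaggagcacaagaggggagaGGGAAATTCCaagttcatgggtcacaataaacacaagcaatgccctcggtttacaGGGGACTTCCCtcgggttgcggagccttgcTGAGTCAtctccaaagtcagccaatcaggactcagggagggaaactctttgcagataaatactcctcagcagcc
Ccl3: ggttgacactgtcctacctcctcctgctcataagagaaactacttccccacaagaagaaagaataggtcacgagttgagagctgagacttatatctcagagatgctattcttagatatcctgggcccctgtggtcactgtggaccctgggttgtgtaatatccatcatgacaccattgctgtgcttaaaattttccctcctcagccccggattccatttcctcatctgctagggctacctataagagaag
The NF-κB consensus was found in the 300-base windows of 3 of the 6 members, Cxcl2, Cxcl3 and Cxcl10, and in 8.46% of 32851 promoters of that length. Cxcl2 and Cxcl3 carried 1 site each that matched on both strands, at bases -97 to -87 and -73 to -63 from the RefSeq start. The matches on the 2 strands overlap there by all but 1 base. Cxcl10 carried the motif at -159 to -150 and at -104 to -94, and was the only one of the 6 with the AP-1 motif (7.81% of promoters) or the interferon-stimulated response element (3.44%). Other motifs searched were the C/EBP core TTGNNNAA, in 3 of 6 members and 36.7% of promoters, the core of the cyclic AMP response element, TGACG, in Ccl22 (20.8%), and TATAAA, in Cxcl3 (13.6%). No NF-κB, AP-1 or interferon motif lay in the Ccl3, Ccl17 or Ccl22 windows. A match is a description of letters, and no binding was measured.

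The 10 mRNAs spanned a wide range of abundance, and Ccl22 and Ccl5 were among the most abundant of all. To compare genes, CPM was divided by the length of the longest coding transcript and rescaled to the same total in every library (approximate TPM). On this length-corrected scale the median level over the 12 collagen libraries was 26453 for Ccl22, 25610 for Ccl5 and 7541 for Ccl17. In each of the 18 libraries Ccl22 ranked 1 to 7 and Ccl5 2 to 7 among all genes, and Ccl17 ranked 6 to 31. Cxcl16 was the next, at a median of 839 in collagen and 829 in suspension. Below it came Cxcl3 (483 and 270), Ccl3 (210 and 98.5), Cxcl2 (114 and 31.3), Ccl4 (66.7 and 36.3) and Ccl2 (30.0 and 68.3), and Cxcl10 was the lowest (7.86 and 5.62), always as approximate TPM in collagen and in suspension. The 10 genes together took 2.52% to 5.83% of all counts, and Ccl22 alone 1.23% to 4.67%.

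A second feature of the group was how much it varied between replicates. The names of equally numbered libraries begin with a common string and date, and each number holds every group once. The first part of that string is the same for replicates 1 and 3 and differs for replicate 2. What it stands for is not stated. Cxcl3 averaged 9.69 on the log2 CPM scale in replicate 1 and 6.16 in replicate 3, a range of 3.54, whereas its 6 group means spanned 2.09. Ccl3, Ccl4, Ccl2, Cxcl2, Cxcl3 and Cxcl16 were highest in replicate 1 and lowest in replicate 3, and Ccl5 and Cxcl10 were highest in replicate 1 and lowest in replicate 2. Ccl17 and Ccl22 ran the other way, with the highest mean in replicate 3 and the lowest in replicate 1. Neighbouring groups in the order of levels overlapped in 5 of 5 cases for each of the 10 genes. With the replicate means taken off, 4 of 5 neighbouring pairs still overlapped for Ccl3, Ccl4, Cxcl2 and Cxcl3 and 5 of 5 for the other 6 genes. Such overlaps were not counted over all genes, so these counts have no background beside them. The tests are therefore given without and with the replicate as a block. The plot of levels by library shows these offsets.

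**Figure D1:**
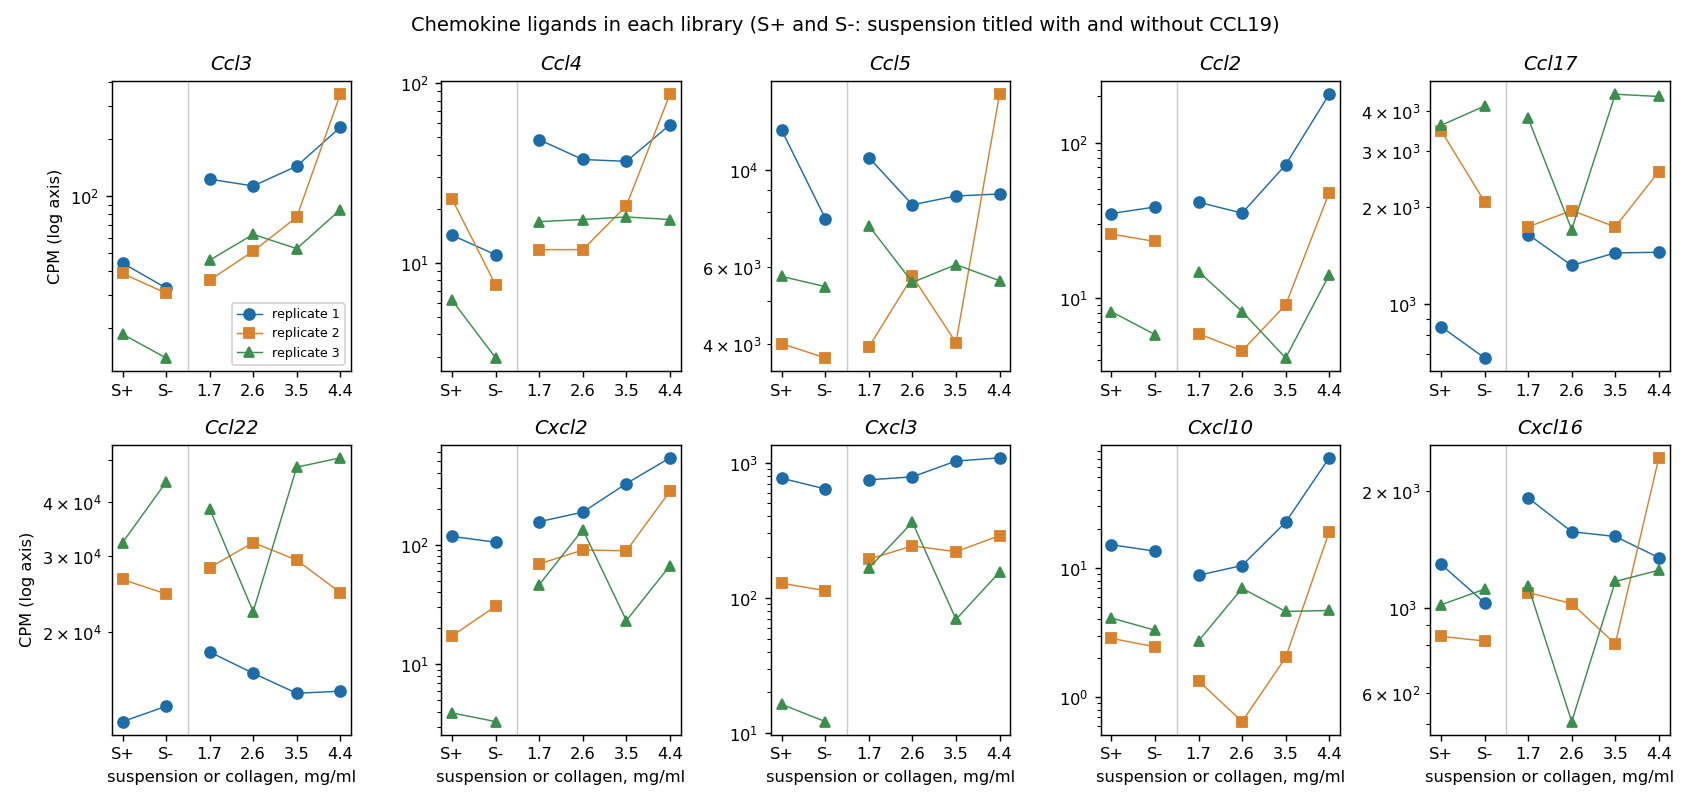
CPM of each gene (log axis, 1 panel per gene) in the 2 suspension groups and at the 4 collagen densities, with 1 point per library and lines joining libraries of the same replicate within suspension and within collagen. Replicate 1 lies above the others for Cxcl3 and replicate 3 lies at the top for Ccl22 in all groups but 2.6 mg/ml, and all 12 collagen points for Cxcl2 lie above both suspension points of their own replicate.

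Of the 10 genes, 2 were higher in collagen than in suspension without the block, Ccl3 and Ccl4. With the block there were 4: Ccl3, Ccl4, Cxcl2 and Cxcl3. Over all genes tested, 7.78% were called higher without and 15.6% with the block (edgeR quasi-likelihood test, false discovery rate 0.1), and no member was called lower in this or any other comparison. For the lists of other genes below, the shares of all genes called lower in collagen were 12.4% without and 19.3% with the block. The median log2 fold change of the 10 was 0.43 against 0.00 over all 13844 genes, and 9 of 10 were positive against 50.2% of genes (Ccl2 turned negative when the block was combined with offsets for GC content and length). The other 6 did not pass in either fit.

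Ccl3, also called MIP-1α, is a ligand of CCR1. In suspension titled with CCL19 it measured 44.2, 38.9 and 18.6 CPM in replicates 1, 2 and 3, and in suspension titled without CCL19 32.6, 30.6 and 13.9 CPM. In the 1.7 mg/ml gels it measured 123, 35.9 and 45.7 CPM, in those of 2.6 mg/ml 113, 51.0 and 62.7, in those of 3.5 mg/ml 144, 77.3 and 52.6, and in those of 4.4 mg/ml 231, 345 and 84.6. All but 1 of the 12 collagen libraries, 1.7 mg/ml replicate 2, lay above both suspension libraries of the same replicate. Within replicates 1, 2 and 3 the mean of the collagen libraries exceeded that of suspension by 1.94, 1.27 and 1.89 on the log2 scale. The fit gave a log2 fold change of 1.77 ± 0.38 (SE), or 3.41-fold, with an adjusted p of 0.00634. It passed in all 18 fits that left out 1 library.

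Ccl4 (MIP-1β), an attractant of monocytes and T cells encoded 13.2 kb from Ccl3 on chromosome 11, was lower in level and followed it closely. It measured 14.3, 22.6 and 6.18 CPM in suspension titled with CCL19 and 11.1, 7.52 and 2.96 CPM in suspension titled without. In the 1.7 mg/ml gels it measured 48.5, 11.9 and 16.97 CPM, in those of 2.6 mg/ml 37.6, 11.9 and 17.4, in those of 3.5 mg/ml 36.8, 20.8 and 18.02, and in those of 4.4 mg/ml 58.7, 86.9 and 17.4. In replicates 1 and 3 all 8 collagen libraries exceeded both suspension libraries of their replicate, but in replicate 2 only the 4.4 mg/ml library did. The log2 fold change was 1.55 ± 0.44 (adjusted p = 0.0284). Without the libraries of replicate 2 it was 1.90 and no longer passed (adjusted p = 0.125).

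Ccl5 (RANTES), an attractant of T cells and eosinophils, did not pass the test of all gels against suspension. It ranged from 3708 to 12316 CPM (median 5551) in the 6 suspension libraries and from 3929 to 14909 CPM (median 6758) in the 12 collagen libraries. The groups overlapped throughout. The highest suspension library was titled with CCL19 (replicate 1), and the highest of all was 4.4 mg/ml replicate 2. The log2 fold change was 0.20 ± 0.30 (adjusted p = 0.723), and within replicates 1, 2 and 3 it was -0.10, 0.65 and 0.14.

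Cxcl2 (MIP-2) and Cxcl3, neutrophil attractants encoded 114.3 kb apart on chromosome 5, had the widest differences in replicate 3, whereas in replicate 1 Ccl3 and Ccl4 differed more. Cxcl2 measured 117, 17.2 and 3.90 CPM in suspension titled with CCL19 and 105, 30.5 and 3.30 CPM in suspension titled without. In the 1.7 mg/ml gels it measured 156, 69.0 and 46.2 CPM, in those of 2.6 mg/ml 187, 90.1 and 134, in those of 3.5 mg/ml 324, 88.8 and 23.2, and in those of 4.4 mg/ml 532, 279 and 66.5. All 12 collagen libraries lay above both suspension libraries of their replicate, although across replicates the groups overlapped. The excess within replicates 1, 2 and 3 was 1.26, 2.28 and 3.91 log2 units, largest in replicate 3, where the suspension level was lowest. Without the block the log2 fold change was 1.71 ± 0.76 and did not pass (adjusted p = 0.148). With the block it was 2.41 ± 0.43, 5.32-fold, and passed (adjusted p = 5.6e-04). Without the block it did pass when the replicate 1 library of the suspension titled with CCL19 (log2 2.83) or of that titled without (2.45) was left out, and when all libraries of replicate 1 were left out (2.80).

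Cxcl3 repeated this pattern at a higher CPM. Suspension gave 767, 128 and 16.3 CPM in replicates 1, 2 and 3 of the group titled with CCL19, and 639, 113 and 12.2 CPM in the group titled without. In the 1.7 mg/ml gels it measured 746, 193 and 166 CPM, in those of 2.6 mg/ml 786, 242 and 363, in those of 3.5 mg/ml 1028, 220 and 69.4, and in those of 4.4 mg/ml 1085, 289 and 155. Within a replicate 11 of 12 collagen libraries lay above both suspension libraries, but the excess was 0.36, 0.96 and 3.49 log2 units in replicates 1, 2 and 3, so that replicate 3 carried most of it. The log2 fold change was 0.67 ± 0.80 without the block (adjusted p = 0.635) and 1.42 ± 0.41 with it (adjusted p = 0.0172).

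With the block, Ccl3, Ccl4, Cxcl2 and Cxcl3 were called in all 18 fits that left out 1 library. Macrophages also make these chemokines, and 1 of the 9 macrophage markers, Marco, was higher in collagen without the block (log2 fold change 1.26, adjusted p = 0.0597), as were 7 of 9 with the block. Of the 4 monocyte markers, 1 was lower without the block, and 2 were higher and 1 lower with it. Of the 9 neutrophil markers, 2 were lower in both fits. All 5 eosinophil markers tested were lower in collagen in both fits. The part of these cells in the chemokine values was not tested.

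**Figure D2:**
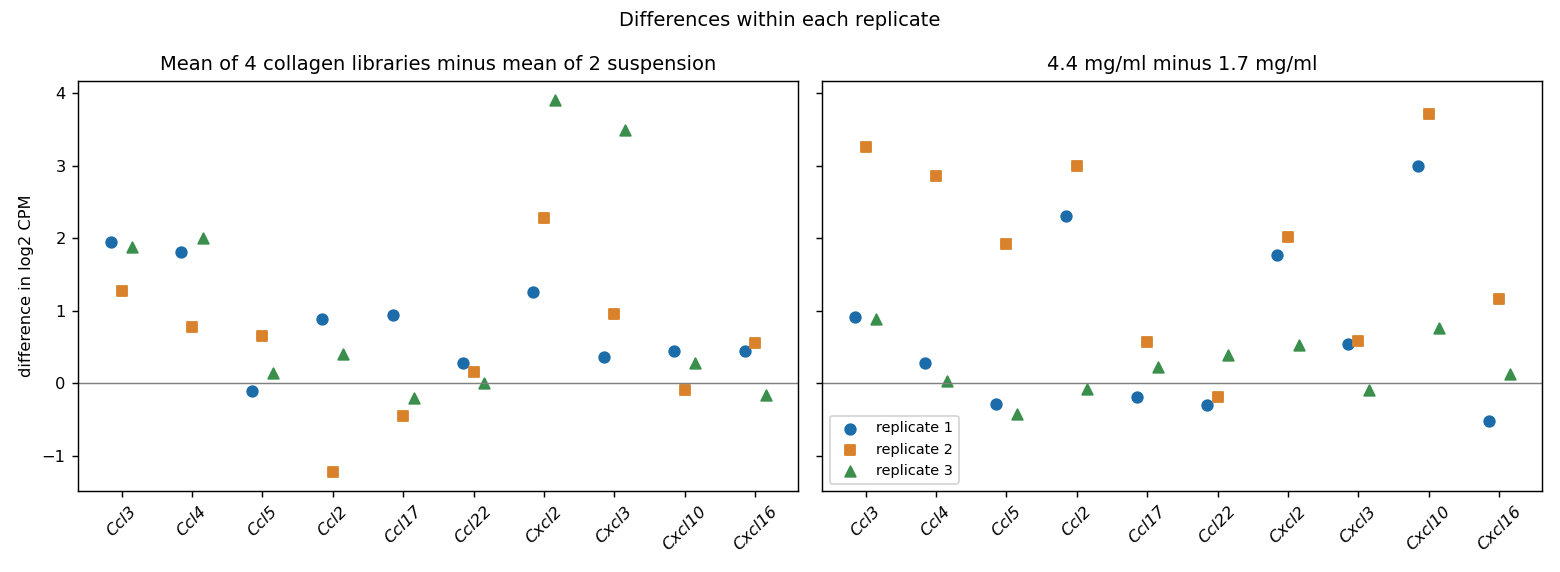
Difference in log2 CPM within each replicate, for the mean of 4 collagen libraries minus the mean of 2 suspension libraries (left) and for 4.4 mg/ml minus 1.7 mg/ml (right), with 1 point per replicate and gene. Ccl3, Ccl4, Ccl22, Cxcl2 and Cxcl3 lie above 0 in 3 of 3 replicates on the left, and Ccl3, Ccl4, Cxcl2 and Cxcl10 in 3 of 3 on the right.

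Ccl2 (MCP-1), which draws monocytes through CCR2, did not differ detectably between collagen and suspension. Its CPM ran from 5.80 to 38.4 (median 24.4) in suspension and from 4.10 to 205 (median 14.4) in collagen. The within-replicate differences were 0.89, -1.22 and 0.41 log2 units, so the replicates did not share a direction. The log2 fold change was 0.41 ± 0.68 (adjusted p = 0.745) and 0.07 ± 0.36 with the block.

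Cxcl10 (IP-10), a classical interferon-induced chemokine, was the scarcest member. It measured 15.1, 2.86 and 4.11 CPM in suspension titled with CCL19 and 13.5, 2.46 and 3.30 CPM in suspension titled without. In the 1.7 mg/ml gels it measured 8.78, 1.34 and 2.73 CPM, in those of 2.6 mg/ml 10.4, 0.651 and 6.96, in those of 3.5 mg/ml 22.6, 2.04 and 4.62, and in those of 4.4 mg/ml 70.9, 18.9 and 4.70. The libraries at 1.7 mg/ml were below both suspension libraries of their replicate and those at 4.4 mg/ml above both. As few as 9 counts lay behind the lowest value (2.6 mg/ml replicate 2). Over all gels the log2 fold change was 0.45 ± 0.68 (adjusted p = 0.718), and 0.42 ± 0.34 with the block (adjusted p = 0.39).

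Ccl17 (TARC) and Ccl22 (MDC), encoded 58.8 kb apart on chromosome 8, did not differ detectably between collagen and suspension. Ccl22 ranged from 12420 to 44402 CPM (median 25473) in suspension and from 14443 to 50515 CPM (median 26420) in collagen, and Ccl17 from 679 to 4135 CPM (median 2775) and from 1318 to 4501 CPM (median 1739). Collagen and suspension overlapped over most of these ranges, and the spread followed the replicate number. The log2 fold change was 0.13 ± 0.35 for Ccl22 (adjusted p = 0.844) and -0.09 ± 0.39 for Ccl17 (adjusted p = 0.91), and with the block 0.17 ± 0.18 and 0.07 ± 0.23. For Ccl17 the replicates disagreed: collagen exceeded suspension by 0.94 log2 units in replicate 1 and lay below it by -0.44 and -0.20 in replicates 2 and 3.

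Cxcl16 stayed within 819 to 1295 CPM in suspension and spread from 507 to 2440 CPM in collagen, with the lowest value at 2.6 mg/ml replicate 3 and the highest at 4.4 mg/ml replicate 2. Its log2 fold change was 0.34 ± 0.25 (adjusted p = 0.401).

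The most members were called at the highest density. At 4.4 mg/ml against suspension, 3 members were higher without the block, Ccl3, Ccl4 and Cxcl2, where 6.55% of all genes were called higher. With the block 8 were higher, where 15.8% of genes were. These counts are each against suspension, and with replicate means taken off the 4.4 mg/ml libraries overlapped those of the neighbouring group for every member except Ccl3. How many of all genes lack this overlap was not counted, so it does not set Ccl3 apart. The 2 that were not called with the block were Ccl17 (log2 fold change 0.29 ± 0.31) and Ccl22 (0.19 ± 0.25), the ligands of CCR4. No test compared them with the other 8. All 10 log2 fold changes were positive without the block, although Ccl17 turned negative with the block and offsets for GC content and length, with a median of 1.42 against 0.01 over all genes.

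Ccl3 rose 7.45-fold at 4.4 mg/ml (log2 2.90 ± 0.48, adjusted p = 0.00229), Ccl4 5.34-fold (2.42 ± 0.55, 0.0127) and Cxcl2 6.34-fold (2.66 ± 0.95, 0.0903). With the block Cxcl2 rose 8.996-fold (3.17 ± 0.51, adjusted p = 3.4e-04). Cxcl10, with log2 2.19 ± 0.91 and an adjusted p of 0.14 without the block, rose by 2.20 ± 0.46 with it (adjusted p = 0.00245). The remaining calls with the block were Cxcl3 (1.501 ± 0.52, adjusted p = 0.0428), Ccl2 (1.46 ± 0.47, 0.0305), Cxcl16 (0.75 ± 0.29, 0.0701) and Ccl5 (0.78 ± 0.33, 0.0913), the last of which fell to 0.25 (adjusted p = 0.565) when offsets for GC content and length were added. Ccl2 measured 205, 47.5 and 14.0 CPM in replicates 1, 2 and 3 at this density, against 34.9, 25.7 and 8.13 CPM in suspension titled with CCL19 and 38.4, 23.1 and 5.80 CPM in suspension titled without. Within each replicate Ccl2 at 4.4 mg/ml was thus above both suspension libraries.

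The library at 4.4 mg/ml replicate 2 carried much of this. It held the highest Ccl3 (345 CPM), Ccl4 (86.9), Ccl5 (14909) and Cxcl16 (2440) of all 18 libraries, while 4.4 mg/ml replicate 1 held the highest Ccl2, Cxcl2, Cxcl3 and Cxcl10. When all libraries of replicate 2 were left out, none of the 3 calls without the block remained: Ccl3 gave log2 2.57 (adjusted p = 0.125), Ccl4 2.19 (adjusted p = 0.2) and Cxcl2 2.43 (adjusted p = 0.49). That fit held fewer libraries, and over all genes its calls at 4.4 mg/ml fell from 2054 to 106. The loss of the 3 calls is therefore not particular to these genes. When the 4.4 mg/ml library of replicate 2 alone was left out of the fit with the block, Ccl3, Ccl4, Cxcl2 and Cxcl10 were still higher, with log2 2.25, 1.71, 2.80 and 1.44. Ccl5 then gave -0.05 (adjusted p = 0.921), Cxcl16 0.24 (0.611), Ccl2 1.34 (0.125) and Cxcl3 1.48 (0.111). Ccl2 also lost its call without the 4.4 mg/ml library of replicate 1 (log2 1.19), and Cxcl3 without that of replicate 3 (1.36). Cxcl16 was further lost without 4.4 mg/ml replicate 3 (0.89), without replicate 1 (0.79) or 2 (0.68) of the suspension titled with CCL19 and without replicate 1 (0.71) or 2 (0.72) of that titled without. Ccl5 passed in only 6 of the 18 fits that left out 1 library: without replicate 1 or 3 of 2.6 mg/ml, replicate 1 or 3 of 4.4 mg/ml, replicate 1 of the suspension titled with CCL19 or replicate 3 of that titled without. The 9 macrophage markers summed to 1301 to 2158 CPM at 4.4 mg/ml against 334 to 1473 in suspension. With the block 7 of the 9 were higher at 4.4 mg/ml, against 15.8% of all genes. Such levels were not particular to this density. At 1.7 mg/ml the markers summed to 749 to 2282 CPM, with 0 of 9 called with the block. Their median log2 fold change without the block was 1.09 at 1.7 mg/ml and 0.97 at 4.4 mg/ml. The part of macrophages in the chemokine values was not tested.

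**Figure D3:**
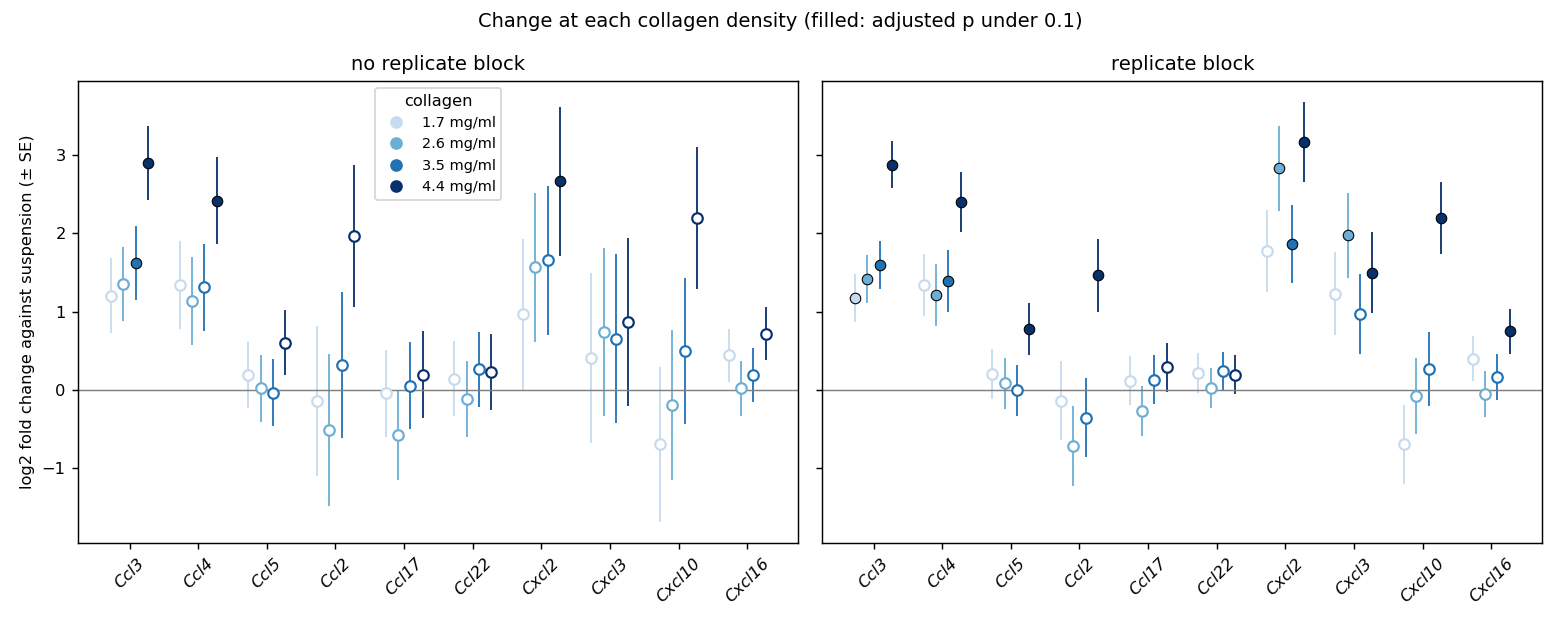
Log2 fold change against suspension at each of the 4 densities (± SE) for the 10 genes, from the fit without (left) and with (right) the replicate block, with filled points for an adjusted p under 0.1. At 4.4 mg/ml 3 points are filled on the left and 8 on the right, and Ccl17 and Ccl22 are open at all densities in both panels.

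In the looser gels fewer members passed. At 1.7 mg/ml none was called without the block and only Ccl3 with it (log2 1.17 ± 0.31, adjusted p = 0.0708), where 0.0361% and 1.5% of all genes were called higher. Without the block 2 members and 1113 genes had an unadjusted p under 0.05 at this density. Cxcl10 had its lowest fold change there, -0.69 ± 0.99, and did not pass. At 2.6 mg/ml the count was again 0 without the block, against 4.29% of genes, with 1 member and 2801 genes at an unadjusted p under 0.05. With the block Ccl3 (log2 1.42), Ccl4 (1.22), Cxcl2 (2.83) and Cxcl3 (1.98) were called at 2.6 mg/ml, against 12% of genes. At 3.5 mg/ml Ccl3 alone passed without the block (log2 1.63 ± 0.47, adjusted p = 0.0844), against 1.97% of genes, and this call was lost when replicate 1 (log2 1.41, adjusted p = 0.296), 2 (1.88, 0.399) or 3 (1.61, 0.208) was left out. With the block Ccl3 (1.60), Ccl4 (1.39) and Cxcl2 (1.87) passed at 3.5 mg/ml, against 8.03%. Offsets for GC content and length, fitted with the block, changed the balance of all calls from 207 higher and 196 lower to 458 and 224 at 1.7 mg/ml, and from 1112 and 1439 to 1449 and 1116 at 3.5 mg/ml. DESeq2 called 0, 1 and 1 members at 1.7, 2.6 and 3.5 mg/ml without the block, against 141, 1828 and 1343 genes in either direction. With the block it called 3, 4 and 3 members, against 1095, 3665 and 3200 genes.

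A linear trend over the 4 densities was called for no member without the block, where 0.00722% of genes were called higher and 2 members and 997 genes had an unadjusted p under 0.05. With the block Cxcl10 rose by 1.00 ± 0.21 log2 units per mg/ml of collagen (adjusted p = 0.0481) and Ccl3 by 0.59 ± 0.13 (adjusted p = 0.0588), against 0.802% of genes. Ccl3 was highest at 4.4 mg/ml in 3 of 3 replicates, and Cxcl10 in 2 of 3. The calls of both trends depended on single libraries, although the slope itself did not fall in every such fit. The Cxcl10 call was lost without the 1.7 mg/ml library of replicate 1 (slope 0.99), 2 (0.98) or 3 (1.03) and without 4.4 mg/ml replicate 2 (0.76). The Ccl3 call was lost without the 1.7 mg/ml library of replicate 1 (slope 0.68), 2 (0.45) or 3 (0.63). It was also lost without 2.6 mg/ml replicate 2 (0.54), 3.5 mg/ml replicate 1 (0.57) or 4.4 mg/ml replicate 2 (0.40). Between 1.7 and 4.4 mg/ml Cxcl10 differed by 3.00, 3.71 and 0.76 log2 units in replicates 1, 2 and 3, and Ccl2 by 2.31, 3.00 and -0.07.

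Across all 6 groups at once, only Ccl3 differed without the block (adjusted p = 0.0361), against 4.9% of genes. With the block 5 members differed, Ccl3, Ccl4, Ccl2, Cxcl2 and Cxcl10, against 24.3% of genes. Between the 2 suspension groups no member and 0% of genes passed in either fit of edgeR. At an unadjusted p under 0.05 there were 0 members and 855 genes without the block and 1 member and 1960 genes with it, and DESeq2 called 0 genes, or 194 with the block, none of them a member. The largest difference between these groups was that of Ccl4, 0.99 ± 0.68 on the log2 scale by title (adjusted p = 0.766), and its sign turns if the library names hold instead.

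Pairs of genes from the same cluster kept their proportions to different degrees, as seen in the ratio of their counts in each library, which is not corrected for length. Ccl3 to Ccl4 ran from 1.72 to 4.71 (median 3.05) in suspension and from 2.53 to 4.85 (median 3.66) in collagen, and Ccl22 to Ccl17 from 7.63 to 19.8 (median 11.3) and from 9.54 to 16.9 (median 11.2). These 2 ratios overlapped between collagen and suspension over most of their range. Cxcl2 to Cxcl3 ran from 0.134 to 0.271 (median 0.201) in suspension and from 0.208 to 0.967 (median 0.362) in collagen. At 4.4 mg/ml it was 0.49, 0.967 and 0.429 in replicates 1, 2 and 3, and all 12 collagen libraries lay above both suspension libraries of their own replicate. No test was run on these ratios.

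**Figure D4:**
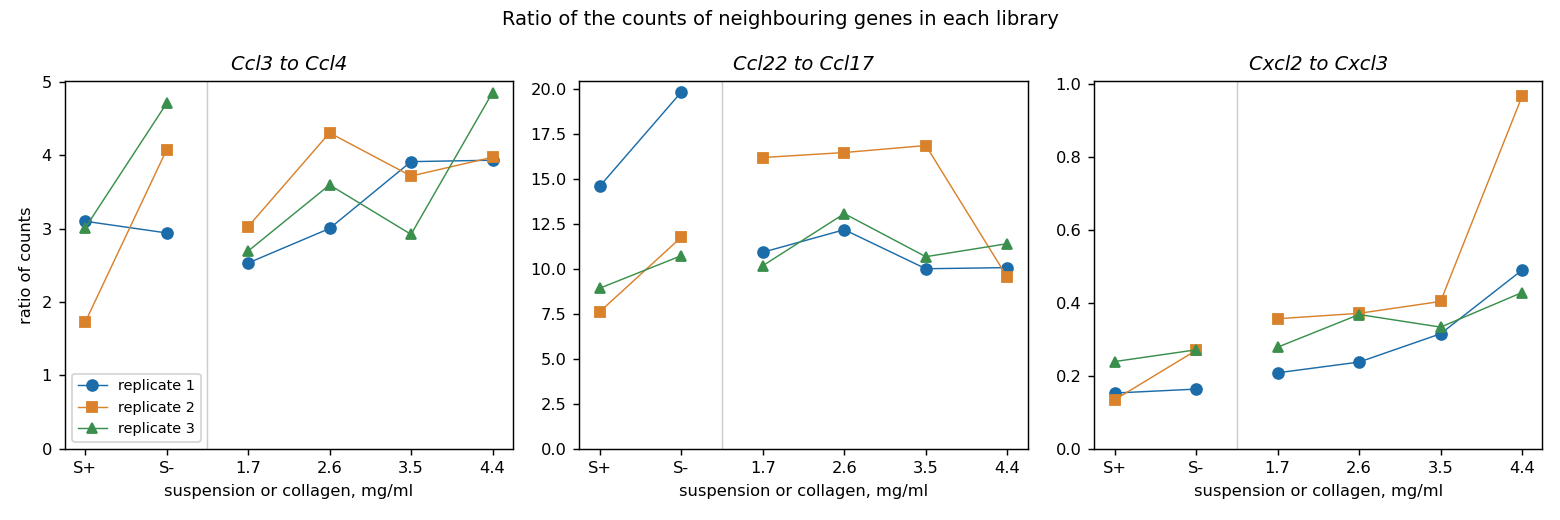
Ratio of the counts of 3 pairs of genes, each pair from the same cluster, in each library (linear axes from 0), by suspension group and collagen density, with 1 point per library and lines joining a replicate. The Cxcl2 to Cxcl3 ratio is at most 0.271 in suspension and reaches 0.967 at 4.4 mg/ml replicate 2, whereas the other two ratios overlap between suspension and collagen.

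With replicate means taken off, the log2 CPM of Ccl3 and Ccl4 correlated at r = 0.94 over the 18 libraries and that of Cxcl2 and Cxcl3 at r = 0.92, while Ccl17 and Ccl22 reached 0.64 and Ccl22 and Cxcl10 lay at -0.35. These coefficients are descriptions, since the libraries share groups. The genes most like each member by the same measure were Siah2, a ubiquitin ligase, and Ifrd1 for Ccl3 (0.97 and 0.96), Ccl3 and the noncoding Snhg8 for Ccl4 (0.94 and 0.94), and Ell, an elongation factor of RNA polymerase II, and Gm5855 for Ccl5 (0.94 and 0.92). For Ccl2 they were Rgl1 and Ifi213 (0.87 and 0.84), for Ccl17 Dynlrb1, a dynein light chain, and Cisd3 (0.98 and 0.96), and for Ccl22 Hadha, an enzyme of mitochondrial fatty acid oxidation, and Sept6 (0.91 and 0.90). Cxcl2 was most like Ptgs2, the inducible cyclooxygenase, and Cxcl1, another CXCR2 ligand (0.97 and 0.96). Cxcl3 was most like Tnfrsf26 and AU022793 (0.95 and 0.95), Cxcl10 like Tnf, the cytokine, and Irs2 (0.89 and 0.89), and Cxcl16 like Rhoc and H2-T22 (0.95 and 0.94).

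Of 28 other chemokine ligands, 14 passed the filter, and 3 were higher and 1 lower in collagen, with a median log2 fold change of 0.79. With the block 6 were higher and 1 lower (over all genes 7.78% higher and 12.4% lower without the block, and 15.6% and 19.3% with it). Cx3cl1 (fractalkine), a membrane-anchored ligand of CX3CR1, was lower, at 129 to 362 CPM in suspension and 80.04 to 207 CPM in collagen (log2 -0.93 ± 0.21, adjusted p = 0.00809). Ppbp, a CXCR2 ligand best known from platelets, was higher (1.47 ± 0.41, adjusted p = 0.0271), and so was Cxcl1 (1.71 ± 0.61, adjusted p = 0.0706), with 1.45 to 18.7 CPM in suspension and 4.46 to 75.5 CPM in collagen. All members of the CXCR2 ligand group that passed the filter, Cxcl1, Cxcl2, Cxcl3, Cxcl5 and Ppbp, had a positive log2 fold change, and all 5 were called with the block. This grouping was made after the values were seen.

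Receptors of the 10 ligands were scarce, and 6 of 11 passed the filter. Of these 3 were lower in collagen in both fits, where 12.4% and 19.3% of all genes were, and none was higher. Ccr3, which binds Ccl5 and is an eosinophil marker, was lower by log2 -3.51 ± 0.49 (adjusted p = 5.6e-04), Ccr2, the receptor of Ccl2, by -1.07 ± 0.36 (0.0584), and Cxcr2, the receptor of Cxcl2 and Cxcl3, by -1.69 ± 0.57 (0.0596). Of the eosinophil markers tested, 5 of 5 were lower, among them Siglecf (-2.71). Of the neutrophil markers 2 of 9 were lower, Ly6g (-1.27) and Retnlg (-1.74), and the other 7 were not called, with values from -0.73 for Ltf to 0.35 for Camp. The part of those cells in the receptor values was not tested.

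The calls among regulators of the ligands went in both directions. In the route from LPS to NF-κB, 4 of 26 genes were higher and 4 lower in collagen (9 and 5 with the block; median log2 fold change 0.12). Over all genes 7.78% were higher and 12.4% lower (15.6% and 19.3% with the block), so the count of lower genes was near the background. Ikbkg, the scaffold of the IκB kinase, was lower (-0.86 ± 0.17, adjusted p = 0.00335), as was the kinase Irak4 (-0.71 ± 0.17, adjusted p = 0.011), whereas the adaptor Myd88 was higher (0.65 ± 0.16, adjusted p = 0.0124). Among genes of type I interferon signalling, 2 of 20 were higher and 3 lower (7 and 5 with the block; median 0.18). The kinase Tyk2 was lower (-1.01 ± 0.19, adjusted p = 0.003), as was Irf1 (-0.61 ± 0.16, adjusted p = 0.0189), and the antiviral effector Mx1 was higher (0.99 ± 0.22, adjusted p = 0.0091).

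In the GM-CSF and IL-4 route that feeds Ccl17 and Ccl22, 2 of 11 genes were lower and none higher (3 lower with the block; median -0.15), against 12.4% and 19.3% of all genes lower. They were Stat6 (-0.63 ± 0.15, adjusted p = 0.011) and Csf2rb2, a receptor subunit (-0.78 ± 0.20, adjusted p = 0.0181), and with the block also Csf2rb (-0.51, adjusted p = 0.0227). Of 10 genes that act on AU-rich or related mRNA elements, 2 were higher (3 with the block; median 0.11; 7.78% and 15.6% of all genes): Rc3h1 and Rc3h2, which encode Roquin proteins that destabilise mRNA, with 1.08 ± 0.26 (adjusted p = 0.0125) and 0.94 ± 0.32 (0.0609), and with the block Zc3h12c (0.94, adjusted p = 0.0355). Of 7 proteases that release or cut chemokines, Mmp9 alone was called, and it was lower (-0.94 ± 0.29, adjusted p = 0.043; median of the 7 genes 0.10).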

How the data were processed

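Whole-number counts per Ensembl gene, deposited by the authors for 18 mRNA libraries, were used. The reads were 50-base, single-end and stranded, and were aligned with STAR 2.7.0f to GRCm38 per the submitters' processing notes. The study computed TPM with RSEM, but the sources used here do not say whether the deposited whole-number counts came from it. They also do not say how reads mapping to more than 1 gene were treated. Related genes such as Ccl3 and Ccl4, or Cxcl1, Cxcl2 and Cxcl3, could therefore share reads, and how far they did was not tested. The replicates are labelled biological, but which cultures or mice they came from is not stated, so p-values measure the spread between these libraries. No pair among the 153 pairs of libraries was identical.

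Genes were kept by filterByExpr and scaled by TMM. All 18 libraries entered a single fit over 6 groups with edgeR 4.0.16 (quasi-likelihood F-test, Benjamini-Hochberg adjustment over all 13844 genes, false discovery rate 0.1, R 4.3.3). Every adjusted p in the text comes from this test unless DESeq2 1.42.0 is named. Fold changes are the fitted values with standard errors from the same model, and suspension means both groups without collagen weighted equally. CPM values follow TMM scaling, log2 CPM carries a prior count of 2, and approximate TPM uses the longest coding transcript of the GRCm38 annotation. Only the test of collagen against suspension without the block was run on simulated counts, which held no replicate effect. Of 200 genes changed by 2 log2 units up or down, 193 were called, as were 20 unchanged genes. The other comparisons and fits were not simulated.

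Replicate numbers were taken to pair the libraries, because the names of equally numbered libraries begin with the same string and date. Deviations from group means correlated at a mean r of 0.434 (range -0.149 to 0.846, 45 pairs) within a number and -0.214 (90 pairs) between numbers. The biological coefficient of variation was 49.0% without and 33.1% with the replicate as a block. Alternatives were the block, DESeq2 with and without it, DESeq2 size factors, no filter on low counts, a false discovery rate of 0.05, total counts as library sizes (CPM only), the block with loess offsets for GC content and length (29850 genes, 99.9%), each replicate number left out, and each library left out. Library totals of 13062944 to 28059839 limit the precision of the scarce genes, and floors of 3 counts cover counting error only.

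The 10 members and all gene lists were chosen with earlier results of these data known. All members were named in every comparison. From each list up to 3 genes with the smallest p among those called in collagen against suspension were named, completed from the fit with the block, as were the 2 genes most correlated with each member. Promoters came from RefSeq (GRCm38.p6), and motifs were searched on both strands. Some items are not reported here.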

Additional observations from a re-analysis of the deposited data

How the results depend on the processing

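Adding the replicate number as a block raised most counts of calls. Without the block, 1, 2, 0, 0, 0, 1 and 3 chemokine genes were called for any difference among the groups, collagen against suspension, the density trend, and each collagen density from the loosest to the densest against suspension. With the replicate block these were 5, 4, 2, 1, 4, 3 and 8, with DESeq2 and the block 5, 4, 3, 3, 4, 3 and 8, and with the block and GC and length offsets 6, 4, 2, 1, 4, 3 and 7. Without a filter on low counts they were 5 for any difference, 4 for the trend and 1, 3, 3 and 5 at the 4 densities. DESeq2 without the block gave 2 for any difference, 3 in collagen, 1 at 2.6 mg/ml and 4 at 4.4 mg/ml. A false discovery rate of 0.05 gave 0 at 3.5 mg/ml and 2 at 4.4 mg/ml. Over all genes the 7 counts were 679, 2790, 1, 5, 1090, 679 and 2054, and with the replicate block 3363, 4823, 201, 403, 2990, 2551 and 4420. They were 5298, 5381, 811, 1095, 3665, 3200 and 5023 with DESeq2 and the block, and 3805, 5210, 712, 682, 3506, 2565 and 4915 with the offsets. DESeq2 alone gave 2015 genes for any difference, 3414 in collagen, 122 for the trend and 141, 1828, 1343 and 2808 at the 4 densities. No filter gave 1993 for any difference, 139 for the trend and 79 at 1.7 mg/ml, and the stricter rate gave 338, 1793, 2, 444, 220 and 1229 for all but the trend. Between the suspension groups, where edgeR called 0, no filter gave 10 and DESeq2 with the block 194 genes. The cause of these changes was not tested.

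Some folds that were not called changed sign. With the replicate block and with DESeq2 and the block, Ccl17 went from -0.09 to 0.069 and 0.11 in collagen and from -0.04 to 0.12 and 0.14 at 1.7 mg/ml, Ccl22 from -0.12 to 0.024 and 0.054 and Cxcl16 from 0.021 to -0.051 and -0.024 at 2.6 mg/ml, Ccl2 from 0.32 to -0.35 and -0.34 at 3.5 mg/ml, and Cxcl3 from 0.15 to -0.022 and -0.0059 for the trend. Ccl5 at 3.5 mg/ml went from -0.03 to 0.0035 with DESeq2 or its size factors and to 0.031 with DESeq2 and the block, and Cxcl2 between the suspension groups from -0.0021 to 0.057 with DESeq2 and 0.055 with its size factors. The block with offsets gave -0.30 for Ccl2 in collagen, 0.093 for Cxcl2 between the suspension groups, -0.0092 for the Cxcl3 trend, -0.10 for Ccl5 at 1.7 mg/ml, 0.13 for Ccl22 at 2.6 mg/ml, -0.79 for Ccl2 and -0.15 for Ccl17 at 3.5 mg/ml, -0.20 for Ccl17 at 4.4 mg/ml, and -0.075 for Ccl5 and -0.19 for Ccl17 between the suspension groups. Of the folds under alternatives other than leaving libraries out, 455 kept direction and side of the threshold, 66 gained a call, 2 lost one and 27 changed sign. Total counts as library sizes moved no CPM by more than the spread between replicates.

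Leaving out a replicate number, or 1 library without the block (collagen only) or with it (an alternative chosen after seeing the data), moved the chemokine calls between 0 and 1 for any difference, 1 and 4 in collagen, 0 and 2 for the trend and at 2.6 mg/ml, and 0 and 8 at 4.4 mg/ml, and gave 0 at 3.5 mg/ml. Over all genes the counts ran from 0 to 177, 631 to 2958, 0 to 0, 0 to 1, 0 to 1318, 0 to 3 and 106 to 1615 in the order above, with fewer libraries in each fit. Without replicate 2, 0 genes were called for any difference and at 2.6 and 3.5 mg/ml, and 106 at 4.4 mg/ml. Without replicate 1 Cxcl2 was called in collagen (2.80) and, with Cxcl3, at 2.6 mg/ml (3.09 and 2.20). Uncalled folds that changed sign ran, in collagen, from -0.0029 to 0.52 for Ccl5, -0.48 to 0.90 for Ccl2, -0.31 to 0.28 for Ccl17 and -0.034 to 0.40 for Ccl22. For the trend they ran from -0.10 to 0.29 for Ccl5, -0.094 to 0.14 for Ccl22, -0.12 to 0.21 for Cxcl3 and -0.040 to 0.30 for Cxcl16. At 1.7 mg/ml the ranges were -0.55 to 0.39 for Ccl2 and -0.24 to 0.21 for Ccl17. At 2.6 mg/ml they were -0.13 to 0.25 for Ccl5, -1.27 to 0.025 for Ccl2, -0.41 to 0.33 for Ccl22, -0.60 to 0.27 for Cxcl10 and -0.30 to 0.39 for Cxcl16. At 3.5 mg/ml they were -0.10 to 0.13 for Ccl5, -1.20 to 0.83 for Ccl2 and -0.12 to 0.35 for Ccl17, and at 4.4 mg/ml -0.083 to 1.21 for Ccl5 and -0.021 to 0.34 for Ccl22. Between the suspension groups they were -0.020 to 0.21 for Ccl2, -0.092 to 0.65 for Ccl17, -0.35 to 0.034 for Ccl22, -0.70 to 0.24 for Cxcl2 and -0.065 to 0.21 for Cxcl16. With 9 counts in its lowest library, Cxcl10 is the member most limited by depth.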
